A study of Drosophila melanogaster with 2 samples.

Results

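The genes described here encode the proteins of the mitochondrial ribosome of Drosophila melanogaster, taken as every protein-coding gene whose symbol starts with mRpL or mRpS. The rule found 73 of the 13945 protein-coding genes on the 6 chromosomes used, 47 named for the large subunit (mRpL) and 26 for the small subunit (mRpS). The subunit was taken from the symbol alone here and below. Binding of extra macrochaetae (emc) was measured by chromatin immunoprecipitation and sequencing (ChIP-seq) in whole embryos of mixed sex, 0 to 24 h old. The embryos were of the strain emc-GFP, a transgenic line that stably expresses emc with GFP at its C-terminus. The sources used here give neither the promoter of the transgene nor the state of the endogenous emc gene. Chromatin was sonicated to 200 to 800 bp and precipitated with an anti-GFP antibody per the description, while the antibody field of the labels names emc. The 2 samples, biological replicates 1 and 3, formed 1 group, and an untagged strain was not analysed here. Whole embryos pool stages and cell types, so strong binding in few cells and weak binding in many cannot be told apart.

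Mitochondrial ribosomes translate the few messenger RNAs of mitochondrial DNA, which encode core subunits of the oxidative phosphorylation (OXPHOS) complexes. Their proteins are encoded in the nucleus, made in the cytoplasm and imported. Through its helix-loop-helix domain emc dimerizes with basic helix-loop-helix proteins such as Daughterless. It lacks their basic region, which contacts DNA at the E-box motif CANNTG. In the compact fly genome many genes start close to another gene that reads the opposite way (head to head), and a peak between such starts belongs to no single gene by position.

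The authors' list of reproducible peaks, cut by the irreproducible discovery rate (IDR), held 1865 peaks with a lowest signal of 62.7 and a median of 94.2. Signal is the value the authors deposited for each peak, on the scale of their peak caller. It was used here to describe and rank peaks within a list. Where signals of different lists are set side by side they were not scaled to each other. The pooled list of relaxed peaks held 29399 peaks on the chromosomes used, and the lists of replicates 1 and 3 held 29999 and 30000. The authors describe the relaxed lists as holding background too. Read depth was not in the files.

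A summit of the IDR list lay within 1000 bp of an annotated transcription start of 12 of the 73 mitochondrial ribosomal protein genes, which are called occupied below. This was 16.4% (exact Clopper-Pearson 95% interval 8.79 to 27.0, counting error only), against 12.4% of all protein-coding genes, and the interval held the background. In the pooled list 61 of the 73 genes had a summit, 83.6% (73.1 to 91.2), against 62.6% of all protein-coding genes. The replicate 1 list had a summit at 55 of the genes, 75.3%, against 58.9% of all, and replicate 3 at 63, 86.3%, against 63.2% of all. Both replicate lists had a summit at 52 of the genes, 71.2% (59.5 to 81.2), against 46.5% of all. The mitochondrial ribosomal protein genes were thus above the background in each relaxed list and close to it in the IDR list.

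**Figure D1:**
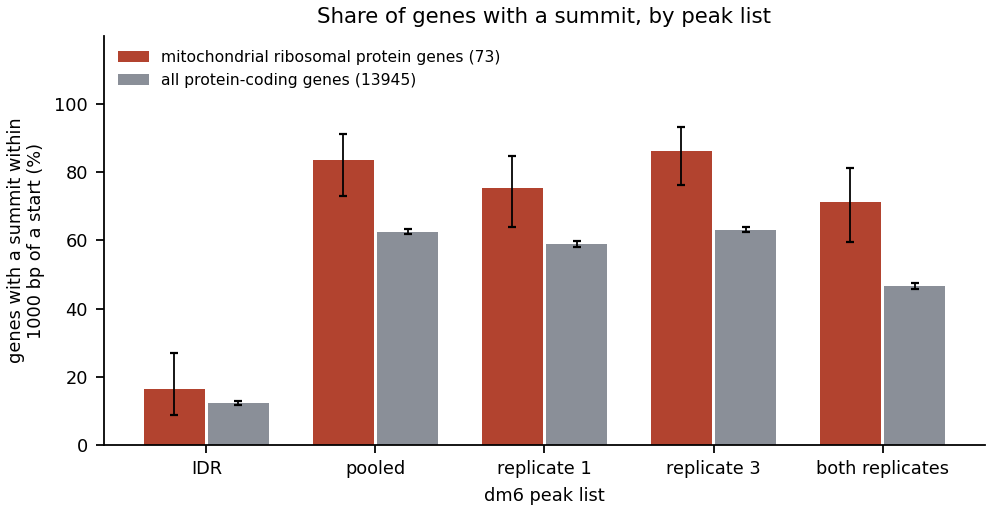
Share of genes with a summit within 1000 bp of a start (percent, vertical axis) in each dm6 peak list, for the 73 mitochondrial ribosomal protein genes (red, left of each pair) and all 13945 protein-coding genes (grey, right), with exact 95% intervals. The pair for the IDR list stands at 16.4% and 12.4%, and the pairs for the other lists lie between 46.5% and 86.3%.

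The genes differed from the genome in how they are placed. An opposite-strand gene started within 1000 bp upstream of 58 of the 73 genes, 79.5%, against 39.4% of all protein-coding genes, and within 500 bp for 53 of them, 72.6%, against 29.4%. The median spacing of the 2 starts was 283 bp for the mitochondrial ribosomal protein genes and 298 bp for all genes that have such a neighbour. In all 58 cases the neighbour was a protein-coding gene, and none was another mitochondrial ribosomal protein gene. Among genes with a head-to-head neighbour, 12 of the 58 mitochondrial ribosomal protein genes were occupied, 20.7% (11.2 to 33.4), against 1180 of 5489, 21.5%, over all protein-coding genes of this arrangement. Without such a neighbour the counts were 0 of 15, which allows a share of up to 21.8%, against 547 of 8456, 6.47%. Set beside genes of the same arrangement, the occupied share in the IDR list was therefore at the background. In the pooled list the mitochondrial ribosomal protein genes with a neighbour had a summit in 86.2% (74.6 to 93.9), against 79.2% of all genes with one, and those without a neighbour in 73.3% (44.9 to 92.2), against 51.8%. Summits in both replicates were found at 75.9% (62.8 to 86.1) with a neighbour, against 65.1%, and at 53.3% (26.6 to 78.7) without one, against 34.5%. Within each arrangement the shares in the relaxed lists were above the background, but every interval held it. A single annotated start was the case for 91.8% of the mitochondrial ribosomal protein genes, against 73.5% of all genes.

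**Figure D2:**
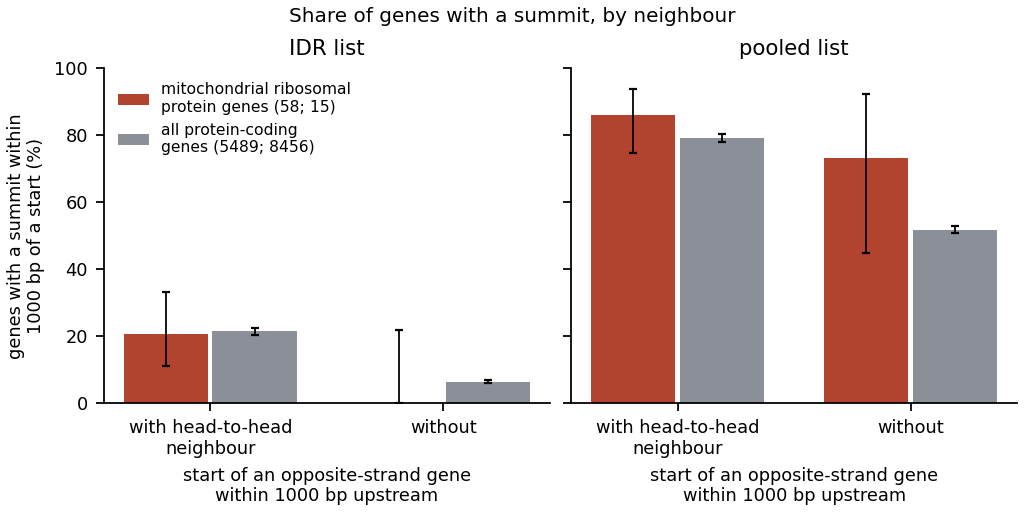
Share of genes with a summit within 1000 bp of a start (percent, vertical axis) in the IDR list (left panel) and the pooled list (right panel), split by whether an opposite-strand gene starts within 1000 bp upstream, for mitochondrial ribosomal protein genes (red) and all protein-coding genes (grey), with exact 95% intervals. With a neighbour the IDR shares are 20.7% and 21.5%, and without one they are 0 of 15 and 6.47%.

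In the small subunit 4 genes were occupied. mRpS10 (FBgn0038307), the counterpart of bacterial S10 in the head of the small subunit, lay at the IDR peak of rank 7, with a signal of 671 (chr3R:15229362-15229687). Its peak had a signal of 282 and rank 12 in replicate 1, and of 392 and rank 8 in replicate 3. The summit was 148 bp upstream of mRpS10 and 109 bp from the start of Art3, an arginine methyltransferase gene, and the 2 genes start 257 bp apart. mRpS23 (FBgn0260407), a protein of the mitochondria-specific set, lay at the peak of rank 18 with a signal of 516 (chr2L:13835317-13835595), 220 in replicate 1 and 294 in replicate 3. Its summit was the farthest of all occupied genes, 382 bp upstream, and lay 110 bp from CenG1A, which encodes a GTPase-activating protein for Arf. Both peaks were thus among the strongest of the list and nearer to the neighbour than to the ribosomal gene.

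The windows of 201 bases around these summits show what lies between the divergent starts. They were read from the Release 6 assembly (dm6) in the direction of the ribosomal gene, 5' to 3', with the summit at the middle base. Capitals mark matches to the 8 motifs searched, and the mRpS10 window (chr3R:15229417-15229617, plus strand) has none.
mRpS10: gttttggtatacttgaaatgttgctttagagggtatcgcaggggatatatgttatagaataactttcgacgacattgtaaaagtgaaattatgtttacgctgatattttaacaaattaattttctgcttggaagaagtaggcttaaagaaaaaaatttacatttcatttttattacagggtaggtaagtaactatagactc
mRpS23: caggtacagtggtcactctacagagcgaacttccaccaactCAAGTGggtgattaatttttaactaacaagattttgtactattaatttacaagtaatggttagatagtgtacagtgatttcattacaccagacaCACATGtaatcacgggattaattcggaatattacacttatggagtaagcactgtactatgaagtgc
The mRpS23 window (chr2L:13835354-13835554, minus strand) has capitals at E-boxes that start 59 bases before and 35 bases after the summit. The window at mRpS10 was the only one of the 12 without an E-box. Its GC content was 29.9%, against 36.3% in the mRpS23 window and a median of 37.3% over all IDR summits.

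The remaining small-subunit peaks were much weaker. mRpS2 (FBgn0031639), the counterpart of bacterial S2, had an IDR signal of 109 at rank 701 (chr2L:4850432-4850811), with 37.4 in replicate 1 and 68.0 in replicate 3. Its summit lay 203 bp upstream and only 19 bp from the start of Mon1, which encodes a subunit of an activator of the vesicle GTPase Rab7. mRpS31 (FBgn0036557), of the mitochondria-specific set, had the weakest peak of the 12, a signal of 72.4 at rank 1436 (chr3L:16004788-16005167), with 21.8 in replicate 1 and 47.7 in replicate 3. The summit was 215 bp upstream of mRpS31 and 242 bp from hzg, and the mRpS31 start was the nearest in the IDR list and in both replicates. A second pooled summit of signal 39.8 stood 16 bp upstream of mRpS31.

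In the large subunit 8 genes were occupied, and 2 of them are described first. mRpL23 (FBgn0035335), the counterpart of bacterial L23 at the exit of the peptide tunnel, lay at the peak of rank 53 with a signal of 349.5 (chr3L:2373474-2373738). The signal was 125 in replicate 1 and 235 in replicate 3. It was the only one of the 12 with a summit downstream of the start, within the mRpL23 5' UTR. The gene has 3 annotated starts, and the summit was 40 bp downstream of the nearest and 66 bp downstream of the gene's 5' end. Its replicate summits were 33 and 45 bp downstream of the nearest start. The divergent gene CG9004 starts 90 bp from the summit. mRpL32 (FBgn0039835), whose counterpart in yeast and mouse is cut to its mature form by the m-AAA protease, had a signal of 122 at rank 536 (chr3R:31252579-31252958). This peak had the largest ratio between replicates of the 12, with 30.3 and rank 1562 in replicate 1 and 93.8 and rank 307 in replicate 3. Its summit was 103 bp upstream, within the 264 bp between mRpL32 and qless, a gene of coenzyme Q synthesis.

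Sequence at these 2 peaks is shown because each holds matches to 3 of the 8 motifs, more than any other of the 12. Capitals mark motif matches, and both windows run 5' to 3' in the direction of the ribosomal gene on Release 6 (dm6).
mRpL23: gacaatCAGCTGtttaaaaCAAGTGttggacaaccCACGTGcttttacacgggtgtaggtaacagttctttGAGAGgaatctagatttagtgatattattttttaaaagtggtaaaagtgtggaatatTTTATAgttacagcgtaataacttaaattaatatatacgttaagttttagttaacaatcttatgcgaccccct
mRpL32: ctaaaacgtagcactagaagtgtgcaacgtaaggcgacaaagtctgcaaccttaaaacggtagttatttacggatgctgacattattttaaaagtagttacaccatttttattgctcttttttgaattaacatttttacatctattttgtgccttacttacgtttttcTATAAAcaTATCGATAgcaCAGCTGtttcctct
In the mRpL23 window (chr3L:2373538-2373738, minus strand) the capitals are 3 E-boxes that start 94, 81 and 65 bases before the summit, of which the last is the palindrome CACGTG. They are followed by a GAGA match and by a TATA match on the other strand. The mRpL23 start nearest to the summit is base 61 of this window, so the E-boxes lie before it. The gene's 5' end lies 66 bases before the summit, so CACGTG lies just past that end. In the mRpL32 window (chr3R:31252669-31252869, plus strand) the capitals are a TATA match, the DNA replication-related element (DRE) TATCGATA and an E-box, starting 68, 76 and 87 bases after the summit. All 3 lie closer to the start of mRpL32 than the summit does. This was the only DRE in the 12 summit windows.

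The other occupied genes of the large subunit, apart from mRpL41, had IDR signals of 114.5 or less, against a list median of 94.2. mRpL24 (FBgn0031651), the counterpart of bacterial L24, had a signal of 89.6 at rank 1009 (chr2L:4945340-4945719), 26.6 in replicate 1 and 63.7 in replicate 3. Its summit was 169 bp upstream and 49 bp from betaggt-I, which encodes the beta subunit of a geranylgeranyl transferase. mRpL47 (FBgn0014023) had a signal of 86.6 at rank 1053 (chr3R:9515818-9516197), 44.0 in replicate 1 and 42.4 in replicate 3. The summit was 100 bp upstream and 1 bp inside the shared start of CG8176 and the histone demethylase gene Kdm3, in their 5' UTR. At both genes the neighbour was the nearer in each replicate too.

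The strongest peak at any mitochondrial ribosomal protein gene was at mRpL41 (FBgn0034001), of the mitochondria-specific set, at rank 5 of the IDR list with a signal of 806 (chr2R:15217604-15217906). The replicates gave nearly equal values, 407 at rank 4 in replicate 1 and 401 at rank 6 in replicate 3. The summit was 139 bp upstream of mRpL41, against 148 bp in replicate 1 and 137 bp in replicate 3. Here the neighbour was farther off than at the other 11: the divergent gene CG8079 starts 762 bp upstream, and the only other start within 500 bp of the summit was that of lncRNA:CR44463, 439 bp away and on the strand of mRpL41. mRpL34 (FBgn0083983), the counterpart of bacterial L34, had a signal of 114.5 at rank 618 (chr2R:16098586-16098965), 70.5 in replicate 1 and 46.4 in replicate 3. The summit was 172 bp upstream, with the cell adhesion gene Dg (dystroglycan) starting 384 bp upstream. mRpL53 (FBgn0050481), of the mitochondria-specific set, had a signal of 75.4 (chr2R:13953917-13954296), 29.2 in replicate 1 and 44.5 in replicate 3. Its summit fell 88 bp upstream, in an intron of AGO1, whose nearest start was 82 bp away and whose product is the Argonaute of the microRNA pathway; mRpL53 shares its annotated start with CG33155. mRpL18 (FBgn0026741), the counterpart of bacterial L18, had a signal of 75.1 (chr2R:12756135-12756514), 33.3 in replicate 1 and 47.6 in replicate 3. The summit was 109 bp upstream, past the start of the neighbour and in the 5' UTR of Taz, the gene of tafazzin, which remodels the mitochondrial lipid cardiolipin.

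**Figure D3:**
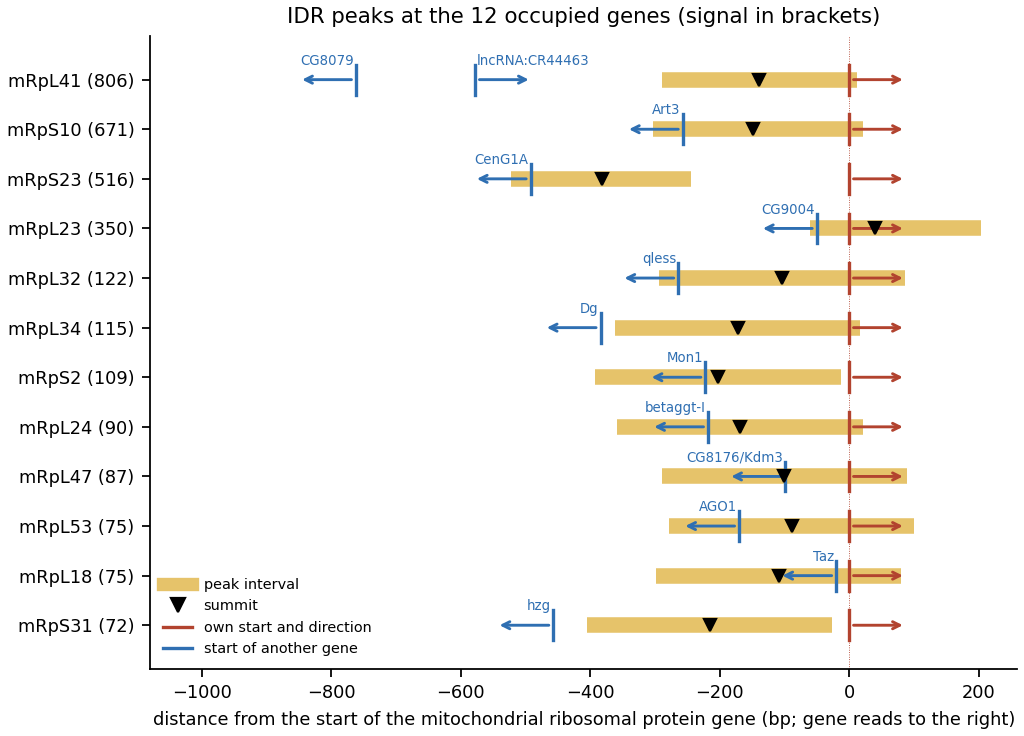
IDR peaks at the 12 occupied genes, in the order of their signal (in brackets), drawn by distance from the start of the mitochondrial ribosomal protein gene (bp, horizontal axis), with every gene turned to read to the right. Yellow bars are peak intervals, black triangles summits, red and blue ticks with arrows the start and direction of the own gene and of another gene. In 11 genes the summit lies upstream of the start, and at mRpL23 it lies 40 bp downstream.

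Among the 12 occupied genes the summit lay upstream of the ribosomal gene in 11, 91.7%, against 86.1% of all occupied protein-coding genes. In 9 it fell between the 2 divergent starts. The exceptions were mRpL23, with its summit in its own 5' UTR, and mRpL47 and mRpL18, with theirs past the start of the neighbour. All 12 had another gene's start within 500 bp of the summit, against 60.1% of all occupied genes and 83.6% of the occupied genes with a head-to-head neighbour. The ribosomal gene's own start was the nearest in 5 of 12, 41.7%, against 66.4% of all occupied genes and 53.0% of those with a head-to-head neighbour. These 5 were mRpL41, mRpL23, mRpL32, mRpL34 and mRpS31. The median distance of summit to own start was 143.5 bp, against 159 bp for all occupied genes and 141 bp for those with a head-to-head neighbour. No test was made of these differences, since neighbouring genes share a peak.

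The replicates did not always place the summit nearer to the same gene. The own start was the nearest in the IDR list and in both replicates for 3 genes, mRpL41, mRpL23 and mRpS31. The neighbour was the nearest in all 3 lists for 6 genes, mRpS10, mRpS23, mRpS2, mRpL24, mRpL47 and mRpL18. For mRpL32, mRpL34 and mRpL53 the nearer gene changed between replicates. At mRpL53, for example, the replicate 1 summit was 39 bp and the replicate 3 summit 98 bp upstream. Over the 12 genes the replicate summits were 2 to 74 bp apart, with a median of 18.5 bp. In 9 of the 12 the IDR summit was the midpoint of the peak interval to within 1 bp.

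All 12 occupied genes had a peak in both replicate lists. The signal, not scaled between the lists, was higher in replicate 3 than in replicate 1 at 9 of them, the exceptions being mRpL41, mRpL34 and mRpL47. Among the 1865 top-ranked peaks of each replicate list were all 12 in replicate 3 and 10 in replicate 1, where mRpL24 ranked 2033 and mRpS31 ranked 3409. Over the 52 genes with a summit in both replicates the best signals had a Spearman rho of 0.644 and a Pearson r of 0.896 on the log2 scale. Over the 40 of these that were not occupied rho was only 0.26. The genes were paired by their best summit in each list, and these summits lay within 100 bp of each other at 28 of the 52 genes, with a median of 74.5 bp, so some pairs are different peaks. All 12 occupied genes had the same rank in the IDR list as in the pooled list. Leaving them out removes the strongest peaks, so the difference between these rho values is no separate result. The points share the 2 libraries and 1 control alignment.

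**Figure D4:**
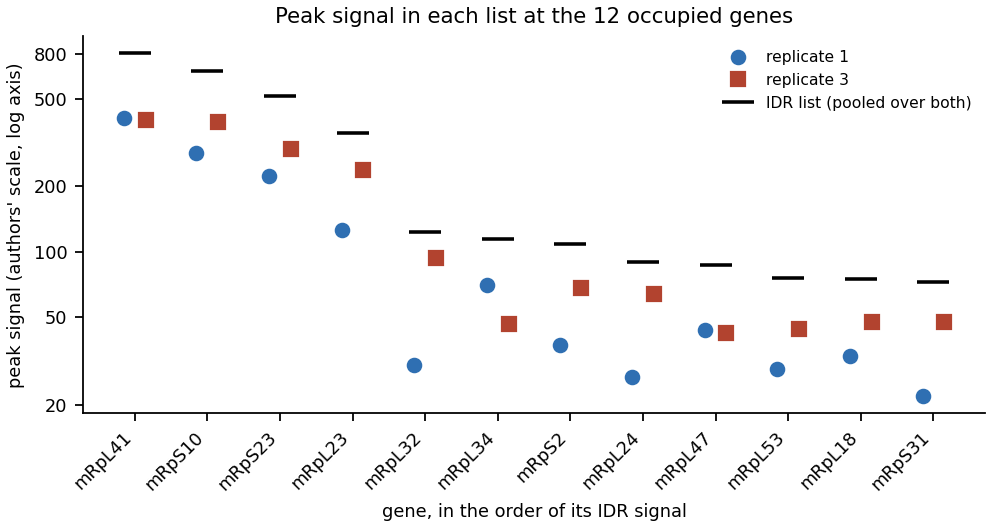
Peak signal (authors' scale, logarithmic vertical axis) at the 12 occupied genes, in the order of IDR signal, in replicate 1 (blue circles), replicate 3 (red squares) and the IDR list, whose values are pooled over both (black bars). The 4 genes on the left have IDR signals of 349.5 or more, and the other 8 have 122 or less.

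The signals of the 12 fell into 4 strong and 8 weaker peaks. The 4 strongest, at mRpL41, mRpS10, mRpS23 and mRpL23, ranked within the first 100 of the list, and the other 8 ranked beyond 500. The first 100 ranks hold 5.36% of the IDR peaks. The share of all occupied protein-coding genes with a peak of such rank was not computed. The median signal of the 12 was 112, against 98.4 over all occupied protein-coding genes, and 5 of the 12 lay below the median of the IDR list. The −log10 q values that the authors deposited ran between 2.95 and 3.38 in the 12.

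The IDR list had a summit at 16.4% of the 73 genes, against 12.4% of all protein-coding genes, and the pooled list at 83.6%, against 62.6%. Below the IDR threshold 49 more of the genes had a pooled summit, with signals up to 60.7 and a median of 37.5. Their −log10 q values ran between 0.0228 and 2.90, with a median of 0.767, so many are weak. Over all 61 genes with a pooled summit the best signal ran from 19.1 through a median of 39.9 to 806, and the median over all protein-coding genes with one was 33.2. The best pooled summit was upstream of the start in 45 of 61, 73.8%, against 62.8% of all genes, and in 29 it was within 250 bp upstream. Farther than that but within 500 bp upstream lay 12, beyond 500 bp upstream 4, and downstream 6 within 249 bp, 3 between 250 and 499 bp and 7 beyond. The median distance was 215 bp, against 269 bp for all genes. With a head-to-head neighbour it was 209 bp, against 218.5 bp for all genes of this arrangement, and without one 329 bp, against 327 bp. The median signal was 41.0 with a neighbour, against 39.5, and 30.5 without one, against 28.8. The upstream share was 78.0% with a neighbour, against 72.2%, and 54.5% without one, against 53.4%. The own start was the nearest at 29 of the 61, 47.5%, and another gene started within 500 bp of the summit at 47. These 2 shares were not computed for all genes with a pooled summit, so the counts cannot be set against a background.

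**Figure D5:**
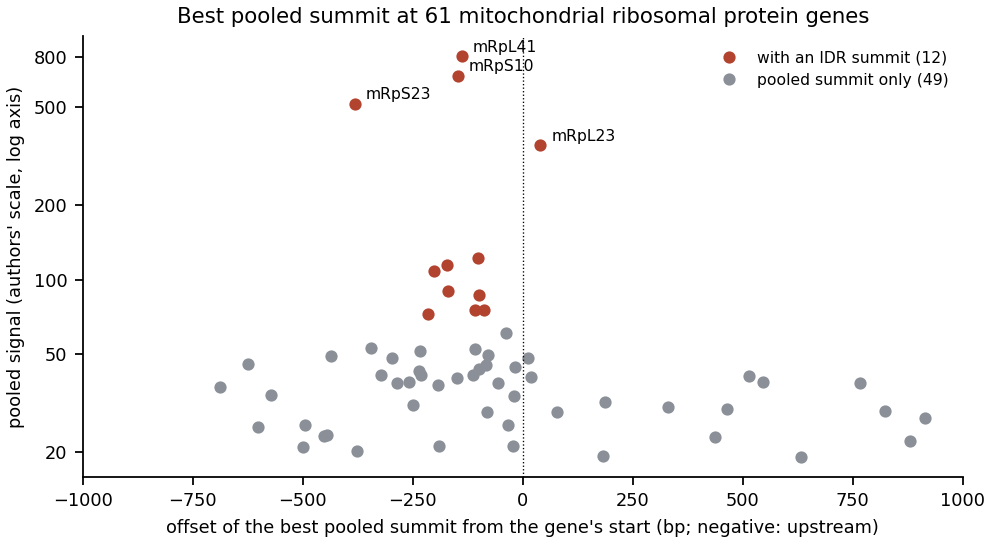
Signal of the best pooled summit (authors' scale, logarithmic vertical axis) against its offset from the gene's start (bp, horizontal axis, negative upstream) for 61 mitochondrial ribosomal protein genes. Red points are the 12 genes with an IDR summit and grey points the 49 without one, and 45 of the 61 points lie left of 0.

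The gene just outside the IDR list was mRpL4, the counterpart of bacterial L4, with a pooled signal of 60.7 against the list's lowest of 62.7, while the weakest occupied gene, mRpS31, had 72.4. The summit was 39 bp upstream of mRpL4, with signals of 32.2 in replicate 1 and 36.7 in replicate 3 and no other start within 500 bp. Among the 15 genes next in signal, mRpL4 included, 14 had the summit upstream, 14 had another gene's start within 500 bp of it, 6 had the own start nearest, and all 15 had a summit in both replicates. At 12 of them the best summits of both replicates lay within 100 bp of the pooled one. The best replicate 1 summit was a different peak at mRpL16, 606 bp downstream, and at mRpL20, 914 bp upstream. At 5 of them, besides mRpL4, the own start was the nearest or tied: mRpL37 at 79 bp upstream (signal 49.2), mRpS14 at 12 bp downstream (48.3, opposite Naa15-16), mRpL50 at 18 bp upstream (44.0, opposite mei-P22), mRpL16 at 100 bp upstream (43.3, opposite the histone methyltransferase gene trr) and mRpL13. The mRpL13 summit (52.5) was 109 bp from both mRpL13 and CG10602. The same arrangement as in the occupied genes was thus common below the threshold, and 79.5% of all 73 genes have a head-to-head neighbour. Over all protein-coding genes with a pooled summit 62.8% had it upstream, and 72.2% of those with a head-to-head neighbour. The shares with another start within 500 bp or the own start nearest were not computed for them.

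At the other 9 of these 15 genes the neighbour's start was the nearer. The mRpL17 summit (signal 52.7) lay 346 bp upstream of mRpL17 and 53 bp from Tudor-SN, the mRpL11 summit (51.3) 233 bp upstream and 107 bp from the mitochondrial protease gene HtrA2, and the mRpS7 summit (48.2) 297 bp upstream and 103 bp from the cell cycle kinase gene Cdk1. The mRpS25 summit (48.8) lay 435 bp upstream and 260 bp from nmdyn-D6, and the mRpL33 summit (45.5) 624 bp upstream and 229 bp from norpA, the phospholipase C of phototransduction. The mRpL51 summit (45.2) lay 83 bp upstream, inside the 5' UTR of Uba4. For mRpS24 (42.5), mRpL20 (41.1) and mRpS26 (40.9) the nearer starts were those of Apc2, the isoprenylcysteine methyltransferase gene Icmt and CG13698. Replicate signals were uneven at some of these genes: mRpS7 had 12.9 in replicate 1 and 32.3 in replicate 3, and mRpS26 had 27.2 and 16.9. At others they were closer: mRpL11 had 25.6 in replicate 1 and 28.2 in replicate 3, and mRpL33 had 23.0 and 20.6.

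The other 34 genes with a pooled summit had signals between 19.1 and 40.9. A further 5 genes, mRpL28, mRpL44, mRpL46, mRpS22 and mRpS29, had a summit in a replicate list but not in the pooled list, with signals of 16.4 or less. No list had a summit within 1000 bp of mRpL14, mRpL30, mRpL38, mRpL40, mRpL49, mRpS28 or mRpS35, 7 genes in all. The shares of all protein-coding genes in no list, or in a replicate list but not the pooled list, were not computed. Absence from a list shows that no peak was called there, not that no protein bound. mRpL30 starts 457 bp from HLH4C, itself a basic helix-loop-helix gene.

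The occupied shares of the 2 subunits, split by symbol, had overlapping intervals. In the IDR list 8 of 47 large-subunit genes were occupied, 17.0% (7.65 to 30.8), and 4 of 26 small-subunit genes, 15.4% (4.36 to 34.9). Proteins numbered as in bacteria (up to L36 and S21) had 7 of 42 genes occupied, 16.7%, and the higher numbers, mostly specific to mitochondria, had 5 of 31, 16.1%. In the pooled list the bacterial-type genes had a summit at 39 of 42, 92.9% (80.5 to 98.5), and the others at 22 of 31, 71.0% (52.0 to 85.8). Those intervals overlap. By chromosome arm the occupied genes were 3 of 12 on 2L, against 12.0% of all protein-coding genes there, and 4 of 12 on 2R, against 12.2%. On 3L they were 2 of 17, against 13.4%, on 3R 3 of 21, against 13.2%, and on X 0 of 11, which allows up to 28.5%, against 10.9%. The exact interval held the background on each of these arms.

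The mitochondrial ribosomal protein genes stood far from the cytoplasmic ones in this assay. Their occupied share was 16.4% (8.79 to 27.0), against 58 of 88 cytoplasmic ribosomal protein genes, 65.9% (55.0 to 75.7). The median signal was 112 at the mitochondrial and 137 at the cytoplasmic genes. The median distance from summit to own start was 143.5 bp at the mitochondrial and 31.5 bp at the cytoplasmic genes, and the own start was the nearest at 41.7% of the mitochondrial and 91.4% of the cytoplasmic genes. The 4 strongest cytoplasmic peaks were at RpS27 (509.9), RpL7 (423), RpL23A (360.0) and RpL14 (266). Nuclear OXPHOS subunit genes, whose partners the mitochondrial ribosome makes, had 15 of 88 occupied, 17.0% (9.87 to 26.6), with a median distance of 118 bp, led by ND-ASHI (180.5), ND-MWFE (179), blw (163) and COX5A (108). The intervals of mitochondrial and cytoplasmic ribosomal protein genes do not overlap, while those of mitochondrial ribosomal protein and OXPHOS genes nearly coincide. A head-to-head neighbour was present at 79.5% of the mitochondrial ribosomal protein genes, against 63.6% of the cytoplasmic and 55.7% of the OXPHOS genes.

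Other genes of mitochondrial gene expression were occupied at 4 of 41, 9.76% (2.72 to 23.1), against 12.4% of all protein-coding genes. Neither tko nor bonsai, mitochondrial ribosomal protein genes that the symbol rule misses, was occupied: tko had a pooled signal of 40.3, 45 bp upstream, and bonsai a summit in replicate 3 alone. None of 9 translation factor genes was occupied, which allows up to 33.6%. Among 14 genes of mitochondrial transcription, RNA and DNA maintenance 2 were, PNPase, a mitochondrial exoribonuclease gene, with a signal of 650 and mtSSB, the single-stranded DNA-binding protein gene, with 100.1. Among 16 aminoacyl-tRNA synthetase genes 2 were, ArgRS-m with 74.8 and LeuRS-m with 143, though that summit lay 825 bp upstream of LeuRS-m and nearer to Dhc64C, at 659 bp. The 4 occupied genes of these lists thus had both strong and weak peaks, as had the occupied mitochondrial ribosomal protein genes.

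Promoters of the 73 genes, taken as 250 bases before to 50 after the start, were searched on both strands for 8 motifs. The DRE (TATCGATA), bound by DREF at many housekeeping promoters, was in 15 promoters, 20.5%, against 9.36% of all protein-coding promoters, and the M1BP core (GGTCACACT) in 8, 11.0%, against 6.05%. The E-box CANNTG was in 67, 91.8%, against 77.2%, GAGA (GAGAG) in 12, 16.4%, against 29.7%, and the initiator letters TCAGT in 28, 38.4%, against 51.5%. The other 3 motifs were near the background. TATAAA was in 34, 46.6%, against 45.8%, the Ohler 6 core (GTATNTTT) in 13, 17.8%, against 14.9%, and the core TGCGCA of NRF-1 and its fly relative ewg in 6, 8.22%, against 6.96%. Matches to different motifs can overlap, and promoters of head-to-head genes can share bases.

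In these counts the occupied genes did not stand out by the DRE or the M1BP core. A DRE was in 2 of 12 occupied promoters, at mRpL32 and mRpS23, against 13 of 61 promoters of the other mitochondrial ribosomal protein genes. The M1BP core was in 0 of 12, against 8 of 61. The E-box was in 12 of 12 occupied promoters, against 55 of 61 of the others. Within 100 bases of the summit an E-box was found at 11 of the 12 genes, against 63.4% of all IDR summits and 62.0% of those within 500 bp of a start. The GC content of these windows ran between 25.9% and 55.7% with a median of 31.8%, against 37.3% over all IDR summits. A motif match is a description of the letters and does not show what is bound.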

How the data were processed

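ChIP-seq peak lists of emc-eGFP embryos, in 2 biological replicates of 1 group, were analysed as deposited. The authors deposited narrowPeak lists, in which each peak carries a signal on the scale of their peak caller and a −log10 q-value, and no p-value. The IDR and pooled lists join both replicates, and each replicate has a relaxed list. Both replicates used 1 control alignment, per the deposited listings, and it was not analysed here. The sources used here name no aligner, peak caller or IDR cutoff. The labels call the replicates biological without describing separate collections, so their spread may be partly technical. Lists on dm3 were not used.

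Summits were set against starts of Ensembl release 115, and sequences were read from RefSeq Release 6, in which 99.83% of the annotated start codons read ATG. Scripts ran in Python 3.11.15 with pandas 2.3.3, numpy 2.4.6 and scipy 1.17.1, and figures were drawn with matplotlib 3.10.9. Occupied genes had a summit no more than 1000 bp from an annotated start, and the summit of highest signal stood for the gene. A head-to-head neighbour is an opposite-strand gene that starts 0 to 1000 bp upstream. Intervals of shares are exact (Clopper-Pearson, 95%) and reflect counting error alone. The assignment step was tested on simulated data. No set test was made, and 1 group allows no test between groups.

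The genes and lists were chosen with earlier results of these data known. Named were every occupied gene, the 15 others of highest pooled signal, genes in no list, the neighbours of named summits and up to 4 occupied genes of highest IDR signal in each other list. Of 27 symbols given by name for mitochondrial gene expression, 2 had no match (mEFG2 and LRPPRC2). Alternatives changed the window, the start set, the assignment, the peak set and the replicates.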

Additional observations from a re-analysis of the deposited data

How the results depend on the processing

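The count of 12 occupied genes was the same with a window of 500 bp, with the gene's 5' end alone and with overlap of the peak interval in place of the summit. The share of all protein-coding genes was 10.6% with 500 bp, 11.2% with the gene's 5' end and 12.9% with interval overlap. Keeping only the 932 strongest IDR peaks left 7 occupied genes, against 6.65% of all genes, all 7 with a head-to-head neighbour and with a median signal of 349.5. A window of 5000 bp gave 27 of the 73 genes, a share above the 24.0% of all genes. Giving each peak to the nearest start alone left 5 of the 73, a share below the 8.41% of all genes. The main setting had 16.4%, against 12.4%, so the direction depended on this choice. With as many top-ranked peaks from a single replicate 11 genes (against 12.0% of all genes) were occupied without replicate 3, which lost mRpL24 and mRpS31 and gained mRpL4, and 12 (against 12.2%) without replicate 1. The median signal then ran between 44.0 and 65.9, on the scales of the single lists. When both replicate lists were cut to that length, 10 genes had a summit in each, against 52 in the whole lists. The share of all protein-coding genes was 46.5% in the whole lists and was not computed for the cut ones. The median distance was 158.5 bp with interval overlap, against 143.5 bp. The offsets of the 12 occupied genes kept their sign under the alternatives run, while mRpL4, gained from replicate 1 alone, had its summit 6 bp downstream there and 39 bp upstream in the pooled list. Read depth is unknown, so a missing peak cannot be told apart from one too weak to call. No paired analysis was possible because there is 1 group.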

Other observations

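Beyond the window, 15 further mitochondrial ribosomal protein genes had an IDR summit between 1000 and 5000 bp of a start. Within 5000 bp in all were 27 of the 73 genes, against 24.0% of all protein-coding genes. Within 1000 bp were 12, against 12.4%. Each of the 15 summits was nearest to the start of a gene outside the set, and only some are named here. The summit 1267 bp from mRpL27 was 9 bp from a start of the cytoplasmic ribosomal protein gene RpL27A (signal 83.6), the one 2550 bp from mRpL50 was 32 bp from RpL18 (signal 77.0), and the one 3536 bp from mRpL44 was 1 bp from RpL35A (signal 67.4). The summit 1376 bp from mRpS7 was 67 bp from da (signal 70.7), the gene of Daughterless, the known partner of emc. These neighbours were chosen after their values were seen, and their nearness to mitochondrial ribosomal protein genes was not tested.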
